A study of Homo sapiens with 3 samples.

Results

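The genes examined here encode signalling partners of BCR-ABL1, and they were described through the capture targets laid on the ends of their introns. The members were the target intervals lying wholly inside windows around GRB2, GAB2, SOS1, CBL, SHC1, STAT5B, STAT5A, JAK2 and KIT, 256 intervals of 377858 in the whole design. The study enriched RNA of K562 cells, a human leukaemia line that carries the BCR-ABL1 fusion, to find branchpoints, and the labels name no treatment. Its 3 libraries, replicates 1, 2 and 3, are biological replicates of this single line and form 1 group. The interval list is common to them, carries hg19 coordinates and gives each interval a score between 0 and 125, the meaning of which no source used here states. No score belongs to a single library, so the values have no replicate error, intervals of 1 gene share their source, and every comparison below is a description with no test. Whether a read depth stands behind the score is not known, and the K562 label could not be set against expression markers.

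A branchpoint is the intron base, usually an adenosine close to the 3′ end of the intron, that the freed 5′ end of the intron attaches to when the intron is removed as a lariat. BCR-ABL1 is a tyrosine kinase that is always active. Its phosphorylated tyrosines recruit the adaptor GRB2, which brings the scaffold GAB2 and the RAS exchange factor SOS1, while STAT5A and STAT5B are transcription factors activated by tyrosine phosphorylation. The adaptor SHC1 gives GRB2 another docking place, CBL is a ubiquitin ligase that marks active tyrosine kinases for degradation, JAK2 is the kinase of cytokine receptors, and KIT is the receptor of stem cell factor.

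The targets themselves are intron ends, and no sequence of the hg19 genome was used here. The exons between targets could be recognised by their length, as set out further below, and for STAT5A and STAT5B they show how alike the neighbouring genes are. Exon numbers are those of the longest basic protein-coding transcript of each gene in GENCODE release 29, from which the sequences are taken. Capitals mark the bases that differ between the paralogues. The following exons of equal length lie in gaps of the design at chr17:40451769-40451900 (STAT5A exon 7) and chr17:40371729-40371860 (STAT5B exon 6), and differ at 2 of 131 bases:
STAT5A exon 7: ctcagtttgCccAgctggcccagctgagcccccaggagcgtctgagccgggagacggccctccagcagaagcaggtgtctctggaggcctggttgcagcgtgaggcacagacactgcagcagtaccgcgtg
STAT5B exon 6: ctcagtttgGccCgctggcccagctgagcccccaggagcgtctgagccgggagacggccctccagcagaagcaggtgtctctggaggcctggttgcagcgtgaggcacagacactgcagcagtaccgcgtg

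The next exons downstream, in the gaps chr17:40452148-40452300 (STAT5A) and chr17:40371329-40371481 (STAT5B), were identical over 152 bases, so no letter is in capitals:
STAT5A exon 8: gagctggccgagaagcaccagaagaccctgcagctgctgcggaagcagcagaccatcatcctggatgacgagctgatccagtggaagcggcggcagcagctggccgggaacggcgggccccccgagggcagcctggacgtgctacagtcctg
STAT5B exon 7: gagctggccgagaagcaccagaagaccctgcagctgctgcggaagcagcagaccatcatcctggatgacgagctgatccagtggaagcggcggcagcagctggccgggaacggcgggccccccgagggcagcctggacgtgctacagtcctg

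Other exons of the pair ranged from nearly identical to clearly different, and the least alike of those that are wholly coding and equal in length is shown for contrast. The exons in the gaps chr17:40456548-40456671 (STAT5A) and chr17:40369177-40369300 (STAT5B) had the same 123 bases of length and differed at 28 of them:
STAT5A exon 12: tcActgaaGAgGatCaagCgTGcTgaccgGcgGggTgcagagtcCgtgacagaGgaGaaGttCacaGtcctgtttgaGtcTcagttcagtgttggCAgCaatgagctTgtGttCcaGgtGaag
STAT5B exon 11: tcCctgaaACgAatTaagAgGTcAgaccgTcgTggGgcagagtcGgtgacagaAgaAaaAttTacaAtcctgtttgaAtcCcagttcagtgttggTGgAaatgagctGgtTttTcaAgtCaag

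The 9 genes differed widely in score. The STAT5 genes had the highest scores, with a median of 61.5 in STAT5A and 22 in STAT5B, followed by the adaptors GRB2 (16) and SHC1 (13.5) and the scaffold GAB2 (9). SOS1 had a median of 5, JAK2 of 4, CBL of 3 and KIT of 1. The median over all 377858 intervals was 1. Of the members, 224 of 256 (87.5%) scored above 0, against 52.8% of all intervals. A score of 19 or more, the 90th percentile of all intervals, was reached by 51 members (19.9%), against 10.4% of all intervals.

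These high scores were unevenly spread over the genes. STAT5A held 15 and STAT5B 16 of the 51, SHC1 held 7, GRB2 held 5, SOS1 and JAK2 held 3 each and GAB2 held 2. CBL and KIT had none. All intervals of STAT5A, STAT5B and SHC1 scored above 0, and so did 22 of 23 in GAB2, 26 of 29 in CBL, 42 of 47 in SOS1, 42 of 47 in JAK2 and 10 of 12 in GRB2. KIT stood at 20 of 36 (55.6%), close to the 52.8% of the whole design.

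**Figure D1:**
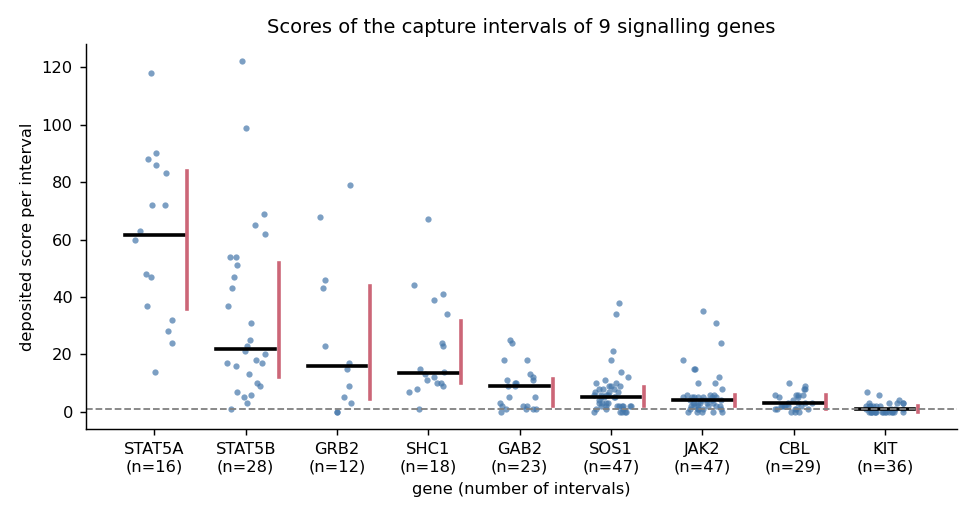
Each point is the deposited score (y axis) of 1 capture interval, grouped by gene (x axis, highest median first). Black bars are medians, red lines run from the lower to the upper quartile, and the dashed line is the median of all intervals, 1. STAT5A has no interval below 14 and KIT none above 7.

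Neighbours in this order overlapped in their spread between intervals: each gene's interquartile range met that of the next one, for all 8 neighbouring pairs. Some genes farther apart overlapped as well, such as STAT5A with GRB2, whose upper quartile was 43.75, and SOS1 with CBL. The lower quartile of STAT5A, 35.75, lay above the upper quartiles of SHC1 (31.5), GAB2 (11.5), SOS1 (8.5), JAK2 (6), CBL (6) and KIT (2). Every one of the 16 STAT5A intervals scored above the highest KIT interval. In CBL 4 of 29 did so, and in JAK2 10 of 47. The share of all intervals above that limit was not computed, but 79.8% of them scored below 9 and their upper quartile was 6. The counts of CBL and JAK2 are therefore not read as a trait of these genes. The order by mean was the same as by median, whereas by share of intervals above 0 GRB2 moved from place 3 to place 8.

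STAT5A and STAT5B lie next to each other on chromosome 17, and no interval of the list lay in the 11390 nt between their outermost targets. STAT5A, on the plus strand, had 16 intervals from 40439655 to 40461394, all exactly 100 nt wide, with scores from 14 to 118. STAT5B, on the minus strand, had 28 intervals from 40354466 to 40428264, with scores from 1 to 122. The scores of STAT5A as a group were higher, but the interquartile ranges overlapped (35.75 to 83.75 in STAT5A, 12.25 to 51.75 in STAT5B).

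The interval numbering showed that much of STAT5A is not in the list. Running numbers count the intervals of a chromosome, and 15 of the 31 numbers in the STAT5A window (48.4%) were missing, against 1.24% of the numbers in the whole design. STAT5B missed 2 of 30 numbers (6.67%), and the other 7 genes missed none. The missing STAT5A numbers fell into 6 gaps between listed neighbours. One gap of 10010 nt held 5 of them, between intervals that scored 63 and 32, and one of 2531 nt held 6, between intervals that scored 86 and 88. The stated recipe laid over the STAT5A transcripts of GENCODE release 29, without the repeat and transcription steps, gave 29 intervals, of which the listed 16 are 55.2% as many. For the other 8 genes the corresponding share ran from 93.3% in STAT5B to 104% in SOS1. The STAT5A median therefore describes the targets that were kept. The labels' protocols state that highly transcribed parts were removed. Whether that step accounts for these numbers was not tested.

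A run of targets in the paralogues had the same spacing. Read in the direction of transcription, 5 successive intervals of STAT5A and 5 of STAT5B were separated by the same gaps of 132, 47, 153 and 489 nt. The gaps of 132 and 153 nt are those of the exons printed above, and the gap of 47 nt lies inside an intron of 248 nt in both genes. In each gene the gap of 489 nt lacks 1 interval number. It spans the next exon, which has 156 nt in both and was identical in sequence. In GENCODE release 29, 2 of 18 corresponding introns had the same length in both genes, and these are the introns of 248 and 433 nt in this run. Of the 19 corresponding exons 16 had equal lengths. Among the 15 of these that are wholly coding, identity ran from 77.2% to 100% with a median of 91.4%.

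The scores of this run agreed in their highest place and not in their lowest. In STAT5A they were 32, 37, 47, 28 and 118, and in STAT5B 3, 51, 43, 20 and 99. The fifth interval was the highest and the fourth lower than the one before it in both genes, but the lowest was the fourth in STAT5A and the first in STAT5B. The first place differed most, by 29. The fifth place is chr17:40452890-40452989 in STAT5A, its highest score, and chr17:40370640-40370739 in STAT5B. Whether reads can be told apart between such similar stretches, and whether reads stand behind the score at all, was not tested.

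**Figure D2:**
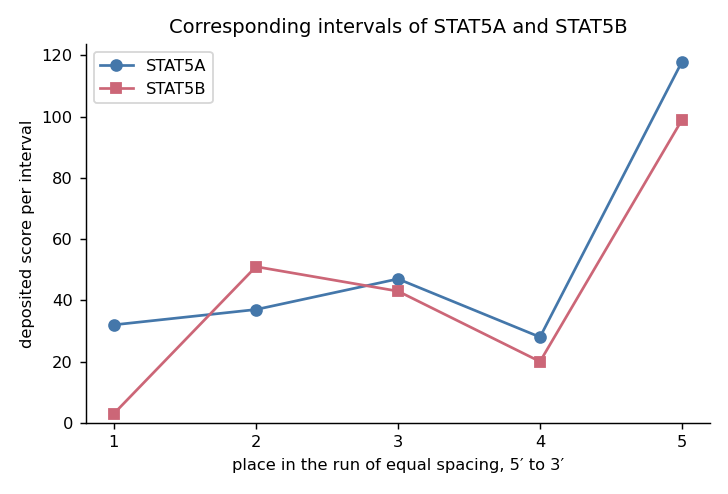
Deposited scores (y axis) of the 5 intervals of STAT5A (blue circles) and of STAT5B (red squares) that share their spacing, in the direction of transcription (x axis). Both genes are highest at the fifth place, with 118 and 99, and lie farthest apart at the first, with 32 and 3.

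The highest STAT5B score was in its first intron, 44110 nt long in GENCODE release 29. The target at the 5′ end of that intron, chr17:40428165-40428264, scored 1. The next target, chr17:40424361-40424460, lay 3704 nt farther in and scored 122. After a gap of 40105 nt without a listed interval, in which 1 number is missing, the target at the 3′ end of the intron scored 47.

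Among the adaptors, GRB2 had the widest range for its number of targets. Its 12 intervals, chr17:73316635-73401568 on the minus strand, scored from 0 to 79. Both zeros lay near the start of the gene, and 1 of them was an interval of only 1 nt. Its highest scores were 79 at chr17:73328680-73328779 and 68 at the last target, chr17:73316635-73316734. These 2 intervals made up 47.7% of its summed score, more than in any other of the 9 genes, where the 2 highest held between 18.6% and 29.1%.

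SHC1 was the most compact of the 9 genes. Its 18 intervals, chr1:154934263-154946722 on the minus strand, scored from 1 to 67, with the highest at chr1:154937918-154938018. In SHC1 7 of 18 targets (38.9%) had the full width of 100 nt, against 80.6% to 100% in the other 8 genes. Another 5 were wider, up to 179 nt at chr1:154940275-154940453 (score 15), a width that can hold a whole short intron or merged intron ends.

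GAB2 and SOS1 carry the signal from GRB2 towards the PI3 kinase and RAS arms. GAB2 had 23 intervals, chr11:77930462-78128690 on the minus strand, with scores from 0 to 25 and the highest at chr11:77931491-77931590. SOS1 had 47 intervals, chr2:39213457-39347701 on the minus strand, with scores from 0 to 38 and the highest at chr2:39220450-39220549. Its first target, at the start of the gene, scored 34 and the next one 2.

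The kinase, the ligase and the receptor had the lowest medians of the 9 genes, though JAK2, with 4, was close to SOS1, with 5. JAK2 and CBL, with 3, lay above the median of all intervals, 1. JAK2, with 47 intervals at chr9:4985175-5126683 on the plus strand, scored from 0 to 35, with the highest at its first target, chr9:4985175-4985244, which is 70 nt wide. CBL, with 29 intervals at chr11:119077324-119170204 on the plus strand, never exceeded 10, reached at chr11:119146846-119146945. KIT, with 36 intervals at chr4:55524250-55604594 on the plus strand, had 16 zeros and a highest score of 7 at chr4:55573164-55573263. Its longest stretch of zeros was 5 successive targets, against 3 in JAK2 and at most 2 in each of the other genes.

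KIT within 500 kb and SOS1 within 100 kb lay among low-scoring neighbours. Within 500 kb on either side of the KIT window, 117 intervals had a median of 0 and only 3.42% of them scored above 0, against 55.6% in KIT. Within 100 kb on either side of SOS1, 9.80% of 51 intervals scored above 0, against 89.4% in SOS1, although within 500 kb the share was 61.6% of 232. STAT5A exceeded flanks of its own window length (22 intervals, median 16.5) by 45, STAT5B exceeded its flanks (103 intervals, median 10) by 12, and GAB2 exceeded its flanks (94 intervals, median 3) by 6. The STAT5 genes lie partly in each other's flanks. STAT5B, with a median of 22, did not exceed its right flank taken alone (49 intervals, median 23), whereas its left flank had a median of 2.5 (54 intervals). The left flank of STAT5A held only 2 intervals, with a median of 61.5.

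GRB2, SHC1 and JAK2 did not exceed flanks of their own window length. GRB2 had a median of 16 and flanks of window length a median of 23 (95 intervals), whereas within 500 kb the flank median was 5 and the direction turned. SHC1 had 13.5 and its flanks 15 (14 intervals), but 6 within 100 kb and 7 within 500 kb. JAK2 equalled its flanks at 4 (17 intervals) and exceeded those of 100 and 500 kb, both with a median of 0. CBL, with a median of 3, exceeded its flanks by 2, with a flank median of 1 over 117 intervals. Both sides were pooled, and in these 4 genes the direction depended on the side. Left and right medians at window length were 0 and 5 for CBL and 29 and 11.5 for GRB2. They were 12.5 and 44.5 for SHC1 and 11 and 0 for JAK2.

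Scores differed along some genes in the direction of transcription. The intervals of each gene were ordered from its 5′ to its 3′ end and cut into terciles of equal number, and Spearman's rho between place and score was taken across intervals, which are not independent. In GRB2 the median went from 1.5 in the first tercile to 26 and 34.5 (rho = 0.68, 12 intervals). In GAB2 it went from 1.5 to 10.5 and 11 (rho = 0.67, 23 intervals), and in STAT5A from 34.5 to 72 and 83 (rho = 0.62, 16 intervals). Thus the first tercile had the lowest median in these 3 genes. STAT5B went the other way, from 50.5 to 31 and 16 (rho = -0.35, 28 intervals). The first tercile of GRB2 held only 4 intervals, and those at places 1 and 3, with scores of 3 and 0, were 1 nt wide. The order in STAT5A covers the listed targets only, as 15 of its 31 numbers are missing. Whether the order would hold without the narrow intervals or with the missing targets was not tested.

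The other genes showed weaker or no order. SHC1 had tercile medians of 10, 13.5 and 24 (rho = 0.32) and SOS1 of 3, 3.5 and 8 (rho = 0.26). JAK2 had 4, 2 and 5 (rho = -0.003), CBL 2.5, 3 and 2 (rho = -0.007) and KIT 1, 2 and 0 (rho = -0.09). With parts of equal length in nt in place of equal number, the difference between the last and the first part turned in SOS1, SHC1, CBL and KIT, where the first part then held 2, 1, 3 and 1 intervals. It kept its sign in the other 5 genes, where the parts were often thin as well. The first part held 2 intervals in STAT5B, 3 in GAB2, 3 in STAT5A, 4 in GRB2 and 8 in JAK2, and the middle part of GRB2 held 0.

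**Figure D3:**
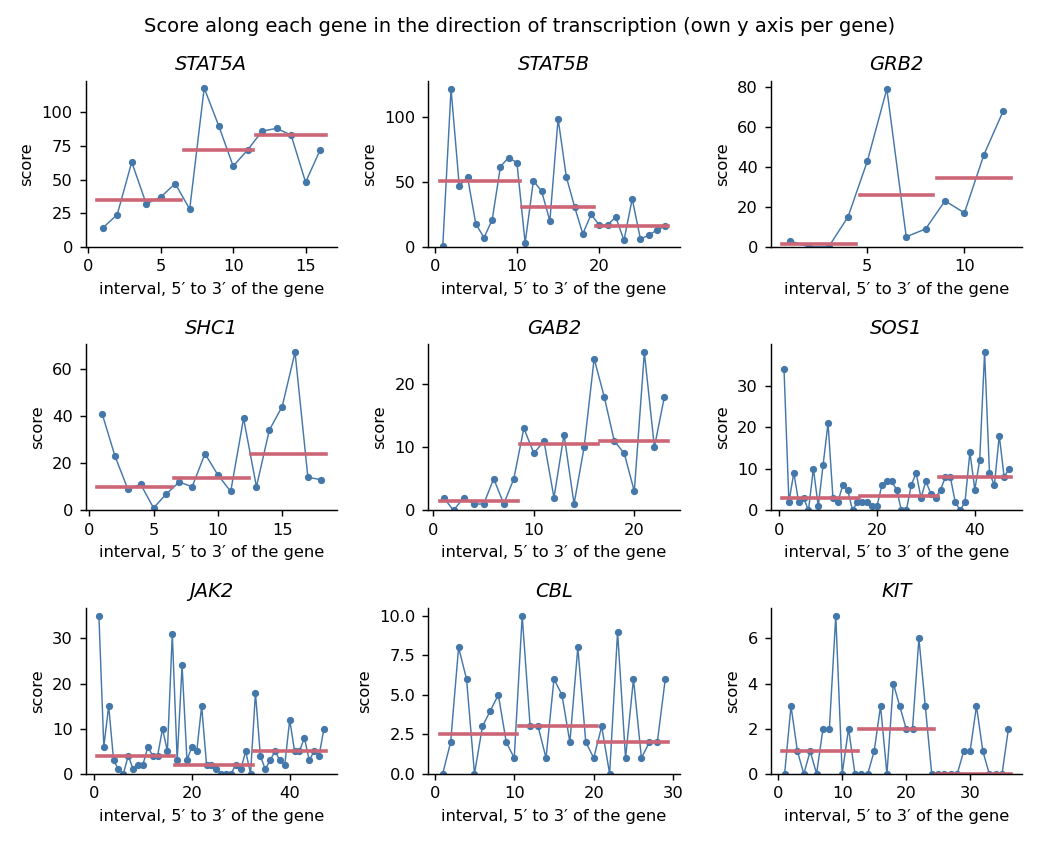
Deposited score (y axis, scaled separately for each gene) of every interval in the order of transcription (x axis) in the 9 genes. Red lines are the medians of the first, middle and last tercile of intervals, which go from 1.5 to 34.5 in GRB2, from 34.5 to 83 in STAT5A and from 50.5 to 16 in STAT5B.

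Gaps between neighbouring targets carried the exon lengths of the genes. Of the 169 gaps of up to 1000 nt in the 9 genes, 93 (55.0%) were exactly 1 nt longer than an internal exon of the same gene in GENCODE release 29. Only 18 were exactly as long as such an exon and 14 were 2 nt longer. The 93 gaps therefore served as exons, and the strand of the gene told which neighbour is the 3′ end of the intron before the exon, where the branchpoint lies, and which is the 5′ end of the intron after it. JAK2 gave 22 such exons, SOS1 16, CBL and KIT 14 each, STAT5B 10, GAB2 8, STAT5A 4, GRB2 3 and SHC1 2. Length alone cannot tell a coincidence from a true match in a single gap. In CBL the counted gap chr11:119167846-119167993 lay between the gaps matched to the successive exons 13 and 14. It therefore falls inside an intron of that transcript, and its 2 sides are not the ends named here. It was kept in the counts. With only the 86 gaps matched in order to the numbered transcripts, the share given next as 52.7% was 53.5%.

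Over the 93 exons the intron 3′ end scored higher in 49 (52.7%), the intron 5′ end in 33, and both were equal in 11. The median was 5 at the 3′ ends and 3 at the 5′ ends. In the whole design, where the strand is not given, the left neighbour of a gap of up to 1000 nt scored higher in 29.5% and the right neighbour in 29.2%. The remaining neighbours were equal, a larger part than the 11 of 93 here. Left and right mix both strands, so these shares cannot show a difference between 3′ and 5′ ends and give no background for the 52.7%. GAB2 had the higher 3′ end in 7 of 8 exons, with medians of 11.5 and 6, the exception being exon 6 (10 before and 24 after). KIT had it in 8 of 14, with 2 the other way and 4 equal.

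GRB2 was the opposite. All 3 of its exons had the higher score at the 5′ end of the following intron. Exon 3 had 43 before and 79 after it, exon 4 had 9 and 23, and exon 5 had 17 and 46. STAT5A (2 of 4), STAT5B (5 of 10) and SHC1 (1 of 2) were split evenly. JAK2 had the higher 3′ end in 11 of 22 exons and the higher 5′ end in 8, SOS1 in 8 and 6 of 16, and CBL in 7 and 5 of 14. The CBL counts include the gap between its exons 13 and 14, with scores of 1 and 6, taken as a higher 5′ end.

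**Figure D4:**
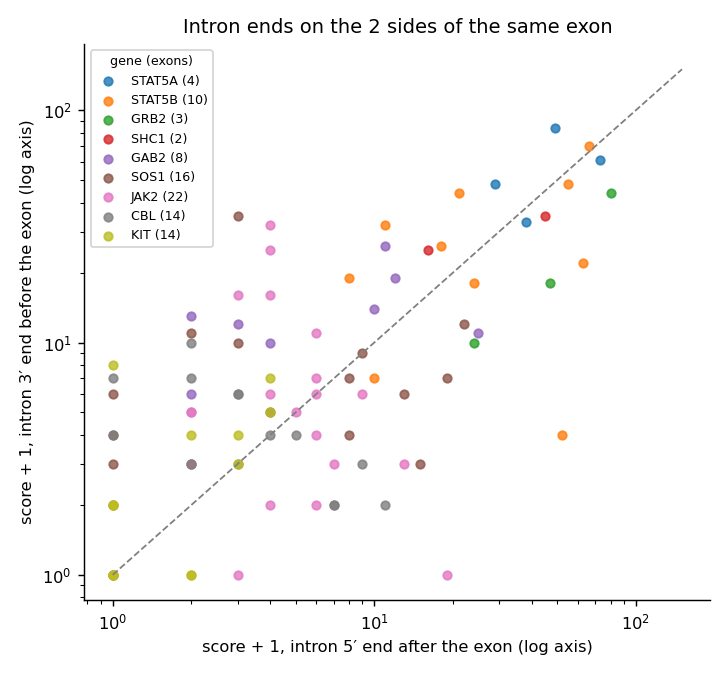
Each point is 1 exon recognised by its length, with the score plus 1 of the intron 3′ end before it (y axis, log scale) against that of the intron 5′ end after it (x axis, log scale), coloured by gene. Points above the dashed line of equality number 49 and those below it 33, and overlapping points hide each other. The 3 GRB2 exons lie below it and 7 of 8 GAB2 exons above it.

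Other genes of the same network were described in the same way, from windows written by hand on hg19. Of 14 such genes, 9 had a gap for at least 50% of the internal exons of their transcript. AKT1, BCL2L1, NRAS, JAK1 and PIK3R1 did not and were left out. The 9 other genes had 205 intervals, of which 95.1% scored above 0 and 29.8% scored 19 or more, against 52.8% and 10.4% of all intervals and 87.5% and 19.9% of the members. Their gene medians ran from 2.5 to 33 with a median of 12, and those of the 9 members from 1 to 61.5 with a median of 9. STAT5A lay above and KIT below the range of the other genes.

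The fusion partner ABL1 had the highest median of the other genes, 33 over 23 intervals. The adaptor CRKL, a major substrate of BCR-ABL1, followed with 25 over only 3, and the phosphatase PTPN11 (SHP2), which binds GAB2, with 13 over 29. The lowest were the adaptor SHB with 2.5 over 12 intervals, the adaptor CRK with 4 over 7 and PIK3CA, the catalytic subunit of a PI3 kinase, with 4.5 over 38. BCR, the other fusion partner, had a median of 12 over 41 intervals. Segments around BCR and ABL1 are known to be amplified in K562. The part of copy number in these scores was not tested. In each of these 9 other genes more exons had the higher score at the intron 3′ end than at the 5′ end, 50 against 23 of 79 exons in all. However, CRKL and CRK gave only 1 exon each and SHB 4, and PIK3CA had 8 against 6 with 3 equal. BCR had medians of 17.5 at the 3′ ends and 17 at the 5′ ends, with a mean difference of -0.06. In another of these genes both medians were 13. The 79 also include the BCR gap chr22:23603343-23603441, counted as a higher 3′ end (28 against 23). It lies between the gaps matched to exons 3 and 4, so it falls inside an intron of that transcript. Among the members 5 genes leaned that way, GRB2 leaned the other way and 3 were tied.

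**Figure D5:**
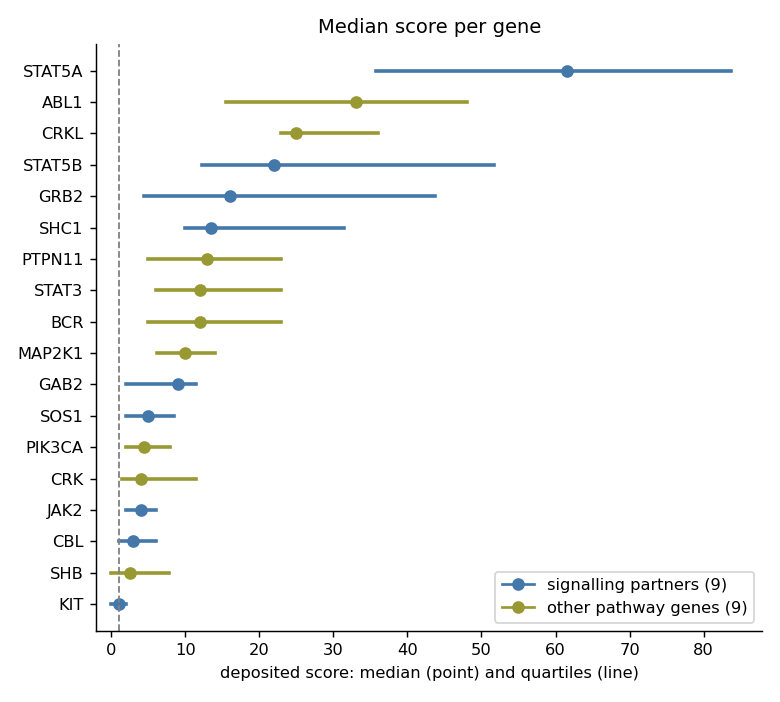
Median (point) and quartiles (line) of the deposited score (x axis) in the 9 signalling partners (blue) and 9 other pathway genes (olive), ordered by median (y axis). The dashed line is the median of all intervals, 1. STAT5A with 61.5 and ABL1 with 33 lead, and KIT with 1 is last.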

How the data were processed

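Targets were the 100 nt ends of introns in GENCODE release 12, without exons and highly transcribed parts, per the labels' protocols. The deposited list gives start, end and a whole-number score per interval, and no source used here states how the score was made. The submitters' processing notes name hg19, Bowtie2, TopHat2 and bedtools, with no role. Coordinates are 1-based hg19. Members were intervals wholly inside fixed windows. The members, windows and lists were chosen with earlier results of these data known. Exon lengths, intron lengths, strands and exon sequences came from GENCODE release 29 (GRCh38). None of its coordinates was carried over to hg19. Gaps of up to 1000 nt were compared with internal exon lengths at shifts of -1 to 3 nt, and exon numbers came from an order-preserving match. The matching was tested on simulated intervals with known shifts and found each one. Flanks were of window length, 100 kb or 500 kb. All 9 genes were named, of the other pathway genes the 3 highest and 3 lowest medians with BCR, and of the intervals the highest and widest per gene. Of the pathway genes listed at the start, 3 are not reported here. BCR and the run shared by the STAT5 genes were chosen after seeing their values. Of protein-coding genes in RefSeq on GRCh38, GAB2 overlaps USP35, JAK2 overlaps INSL6, and STAT5A and STAT5B overlap each other. Long noncoding RNA genes overlap GRB2, GAB2 and SHC1, and pseudogenes overlap GRB2, GAB2, SOS1, CBL and JAK2. Intervals of overlapping genes were not separated. Python 3.11.15, numpy 2.4.6, pandas 2.3.3, scipy 1.17.1 and matplotlib 3.10.9 were used.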

Additional observations from a re-analysis of the deposited data

How the results depend on the processing

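Median scores of the 9 genes stayed inside their 95% order-statistic intervals when intervals touching the window were added, when only intervals of 100 nt, or of 4 nt less to 1 nt more than that, were kept, when windows were shortened by 2 kb at each end and when neighbours up to 10 nt apart were merged. The mean weighted by width lay outside that interval only in JAK2 (5.83 against a median of 4). These intervals treat the targets of a gene as independent, which they are not. They were wide in some genes, such as 3 to 46 in GRB2 and 32 to 86 in STAT5A, so small moves could hardly leave them. With windows shortened by 2 kb at each end, the median of GRB2 went from 16 to 20 and that of STAT5A from 61.5 to 67.5. The order by mean was unchanged. With flanks of 500 kb the difference of GRB2 from its flanks turned from -7 to 11, and that of SHC1 from -1.5 to 6.5 (7.5 with 100 kb). JAK2 went from 0 to 4 with either. With parts of equal length in nt, the last minus the first part was -12 in SOS1 (5 with equal numbers), -12 in SHC1 (14), 1 in CBL (-0.5) and 1 in KIT (-1). The cause was not tested. Spearman's rho does not change with distance, by construction. The share of exons with the higher intron 3′ end stayed within the 95% interval of 42.1% to 63.1% (exact Clopper-Pearson, which treats exons as independent) under all 3 alternatives run. Leaving out STAT5A and STAT5B there was chosen after the data were seen. No paired analysis was possible because the list holds no value per library, which also means that no replicate could be left out. Depth behind the score is not known.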

Other observations

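Of the 93 exons recognised by length, 38 had a score of 10 or more on at least 1 side, and in 13 of these the higher side was at least 5 times the lower one (34.2%). Over all neighbouring intervals of the design up to 1000 nt apart with a score of 10 or more on either side, the share was 28%, so the members' share is read as near the background. The intron 3′ end was the higher in 8 of the 13 and the intron 5′ end in 5. The limits of 10 and 5 were chosen after the values were seen. JAK2 held 6 of the 13. Around its exon 8 the 3′ end before the exon scored 31 and the 5′ end after it 3, and around exon 9 the values were 24 and 3. Exon 16 of JAK2 went the other way, with 0 before and 18 after it, and so did exon 6 of STAT5B, with 3 and 51. The corresponding exon 7 of STAT5A, which differs at 2 of 131 bases, had 32 and 37.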
